A study of Astyanax mexicanus with 8 samples.

Results

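Spheroids of the CFL line seeded small, at 10000 or 25000 cells per well, were set against CFL spheroids seeded large, at 50000 or 100000 cells per well. These are 4 of the 8 libraries of the series, chosen by line and seeding density as the sample titles give them, with 1 library at each density and so 2 libraries a side. CFL is a liver-derived cell line of the Mexican tetra, Astyanax mexicanus, from cave fish that the titles call Pachon, and SFL is the line from surface fish, with the same 4 densities. The labels give every sample the genotype WT, 28 days and free growth as a 3-dimensional spheroid in 100 µL of medium at 27 °C, in 96-well round-bottomed plates to which cells do not attach. No drug, transgene or allele is named in either line.

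A spheroid is a ball of cells that surround one another on all sides and lay down their own matrix of collagens, laminins and glycoproteins, while oxygen, glucose and amino acids reach the inner cells by diffusion from the medium. Cell size, protein synthesis and uptake of amino acids are coupled in animal cells through sensors of nutrients, and matrix genes respond to contact between cells. Seeding density changes how many cells share a well, but the labels give no spheroid diameter, final cell number or viability.

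What these groups can show is limited in 3 ways. The 2 libraries of a side are different densities, so the spread within a side holds any effect of density, and nothing in the labels says that a density was grown more than once. CFL is 1 line, and the labels do not say from how many fish it came. RNA came from whole spheroids, so fewer cells of a type and less RNA per cell cannot be told apart.

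Values are TPM (transcripts per 1000000), shares of a library that are corrected for transcript length, as the authors deposited them. TPM hold no sequencing depth, so neither a counting interval nor a limit of detection is given, and 0 means only that a gene was listed at 0. Differences are small minus large in log2(TPM + 1), where the added 1 shrinks the changes of genes with low values. A positive difference means a higher value in small spheroids. They were tested with limma over 13292 genes that averaged 1 TPM or more over the 4 CFL libraries. Because TPM are shares, each result is given both as deposited and with median-of-ratios scaling, which divides each library by its median ratio to the geometric mean of all libraries. The factors were 1.18 and 1.18 in small CFL spheroids seeded with 10000 and 25000 cells, against 0.804 and 0.936 in large ones seeded with 50000 and 100000. The 10 most abundant genes held 15.3% and 15.7% of TPM in the small spheroids and 19.3% and 18.4% in the large ones, and 19258, 19408, 17819 and 19046 genes were above 0 at the 4 densities in rising order. The CFL library seeded with 50000 cells had the lowest factor and the fewest genes above 0 of the 4 CFL libraries. The factors in SFL were 1.17, 1.13, 0.826 and 0.921 at the 4 densities in rising order, so they too were lowest at 50000 cells.

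The liver label was checked against hepatocyte genes. Of 79 listed genes for secreted and other liver proteins, 28 reached a mean of 1 TPM in CFL, 30 stayed under 0.1 TPM and 10 were listed at 0 in all 4 libraries. The hepatocyte regulator hnf4a averaged 0.20 TPM, the liver fatty acid binding gene fabp10a 0.67 TPM and the apolipoprotein gene apoa2 0.015 TPM, and ttr, the gene of a thyroid hormone carrier, was listed at 0. The summed TPM of the list, 2060, 2411, 2869 and 3438 at the 4 densities in rising order, was held mostly by the single apolipoprotein gene apoeb. Most of the listed hepatocyte genes thus lay under 1 TPM in the CFL spheroids, while hnf1bb, a regulator of liver and bile duct, was present at 309, 336, 225 and 299 TPM.

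As deposited, 4857 of the 13292 genes were higher in small than in large spheroids and 360 were lower (limma, Benjamini-Hochberg adjusted p under 0.05), or 36.5% and 2.71% of the genes tested. After median-of-ratios scaling the split was 2349 higher and 2406 lower, or 17.7% and 18.1%. The median difference over all genes was 0.34 as deposited and -0.04 after scaling, so the split between higher and lower genes depended on the scaling. All 2349 genes called higher after scaling were also called higher as deposited, and all 360 called lower as deposited were also called lower after scaling. These 2349 higher genes (17.7%) and 360 lower genes (2.71%), called under both scalings, are the ones described below as higher or lower, and gene counts refer to them unless said otherwise. With a change past 2-fold as well, 1860 genes (14%) were higher and 55 (0.414%) lower as deposited, and 695 (5.23%) higher and 154 (1.16%) lower after scaling. Without any test, both small libraries lay above both large ones in 62.3% of genes as deposited and 34.2% after scaling, and below both in 11.6% and 39.7%. Genes given only with a scaled difference in brackets were picked from the called members of a list after their values were seen.

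**Figure D1:**
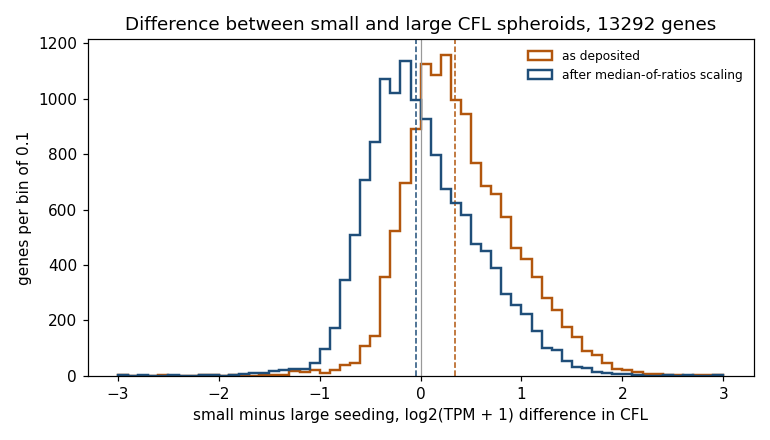
Distribution of the small minus large difference in CFL spheroids (x axis, log2(TPM + 1) difference; y axis, genes per bin of 0.1) over the 13292 genes tested, unscaled and scaled by median of ratios; dashed lines are the medians, 0.34 and -0.04, and values beyond 3 are drawn in the end bins. Both distributions have a longer tail towards genes higher in small spheroids.

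The calls rested strongly on single libraries. Without the library seeded with 10000 cells, the counts after scaling were 8 higher and 11 lower, and as deposited 1179 higher and 42 lower. Without the library seeded with 25000 cells, they were 832 higher and 715 lower after scaling, and 2012 higher and 125 lower as deposited. Without the library seeded with 50000 cells, they were 821 higher and 798 lower after scaling, and 2288 higher and 218 lower as deposited. Of the 24 genes named first below, 3 kept a call without the 10000-cell library (kif1aa, s100w and 7SK), 22 without the 25000-cell library (all but casq2 and spaca4l) and 24 without the 50000-cell library, and none changed direction. Of the other genes named from the lists by rule, 98 passed after scaling. Of these 0 kept the call without the 10000-cell library, 47 without the 25000-cell library, 45 without the 50000-cell library and 93 without the 100000-cell library, and none changed direction, so the calls below depend on which libraries enter the fit.

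Both small libraries were closer to each other than either was to a large one. The distance between libraries, as the root mean square of log2 differences after scaling, was 0.27 between the libraries seeded with 10000 and 25000 cells and 0.40 between those seeded with 50000 and 100000. Across the sides it was 0.70 for 10000 against 50000 cells, 0.56 for 10000 against 100000, 0.65 for 25000 against 50000 and 0.51 for 25000 against 100000. With 1 library at each density these distances have no replicate check.

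Most called genes were not ordered at every step of density. The sides of all called genes lay apart, so only the order within each side was free. Of the 2349 higher genes, 1946 (82.8%) were farther from the small spheroids in the library seeded with 50000 cells than in the one seeded with 100000, after scaling, and 242 (10.3%) were ordered from highest at 10000 to lowest at 100000. As deposited 2173 of them (92.5%) were farther at 50000 and 99 (4.21%) were fully ordered. Over all genes tested, the median of 50000 minus 100000 cells was -0.18 as deposited and 0.01 after scaling. These shares were not computed over all genes. Of the 360 lower genes, 271 (75.3%) were farther at 50000 after scaling, where 61 (16.9%) were fully ordered. As deposited 163 (45.3%) were farther at 50000 and 197 at 100000, and 143 (39.7%) were fully ordered. A linear slope on log2 density in CFL called 0 genes as deposited in either direction, and 1 higher and 2 lower after scaling. The spread of that fit holds any departure from a line, also a step between the sides, so these counts do not decide whether values followed density.

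The 12 genes higher in small spheroids that led by scaled difference were col6a3, mab21l1, slc7a10a, MME, NFIB, slc7a11, lrp8, kif1aa, col4a1, ptbp3, smad1 and tep1. col6a3, a chain of the microfibril-forming type VI collagen, had 26.4 and 19.6 TPM in small spheroids (10000 and 25000 cells), against 1.41 and 2.77 TPM in large ones (50000 and 100000). Its scaled difference was 2.62 ± 0.33 (SE; adjusted p = 0.00566). Its sides did not overlap, which the naming rule required of all these genes. mab21l1, a gene of eye and head development in mice, had 27.8 and 6.67 TPM in small spheroids and 1.3 and 0.84 TPM in large ones (scaled difference 2.52 ± 0.51, SE; adjusted p = 0.0107). It was ordered at every step of density, unlike col6a3, whose lowest value was at 50000 cells.

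MME, the cell surface peptidase neprilysin, was the most abundant of the 12 after slc7a11. It had 178 and 161 TPM in small spheroids and 20.1 and 31.0 TPM in large ones, a scaled difference of 2.28 ± 0.24 (SE; adjusted p = 0.00527). lrp8, a receptor for reelin and apolipoprotein E, had 27.2 and 24.4 TPM in small spheroids, against 2.61 and 5.85 TPM in large ones. NFIB, a transcription factor of lung and brain development, had 33.8 and 25.5 TPM in small spheroids and 2.7 and 6.33 TPM in large ones. In each of these genes the large spheroids seeded with 50000 cells held the lowest value. kif1aa, a kinesin motor of the family that carries vesicles along microtubules, had 17.4 and 14.9 TPM in small spheroids and 1.75 and 2.91 TPM in large ones, with a scaled difference of 2.02 ± 0.18 (SE; adjusted p = 0.00411). smad1, which carries BMP signals to the nucleus, had 7.09 and 7.83 TPM in small spheroids and 0.37 and 1.38 TPM in large ones. The remaining pair of the 12, the splicing regulator ptbp3 and the telomerase-associated gene tep1, had scaled differences of 1.95 and 1.92.

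**Figure D2:**
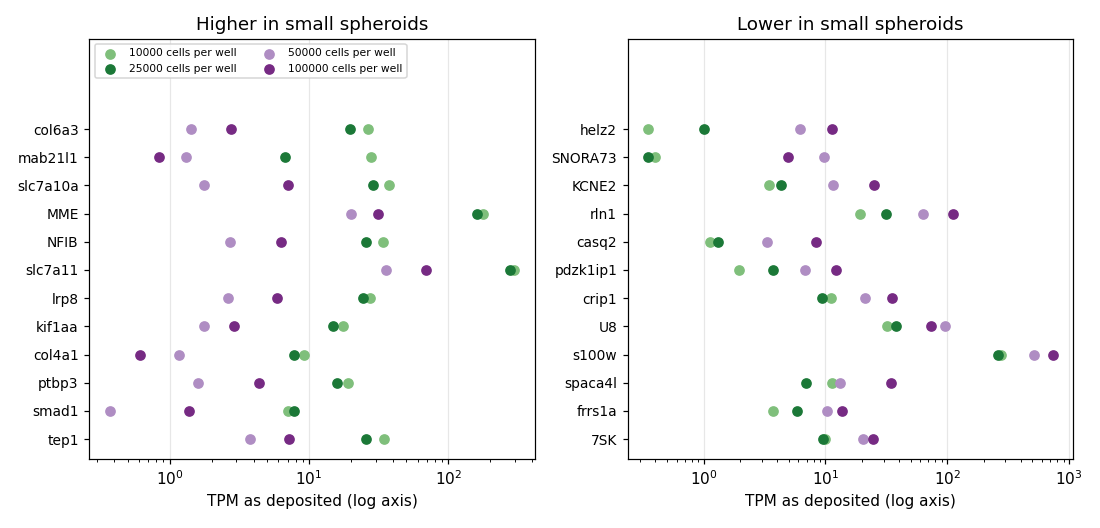
TPM as deposited (log axis) in the 4 CFL libraries for the 12 genes with the largest positive (left) and the 12 with the most negative (right) scaled difference by the naming rule; green points are small spheroids (10000 and 25000 cells per well) and purple points large ones (50000 and 100000). In every gene both green points lie on the same side of both purple points, as the naming rule required.

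Of the genes lower in small spheroids, the 12 with the most negative scaled difference were helz2, SNORA73, KCNE2, rln1, casq2, pdzk1ip1, crip1, U8, s100w, spaca4l, frrs1a and 7SK. helz2, a helicase that interferon induces in mammals, had 0.35 and 1.0 TPM in small spheroids, against 6.18 and 11.4 TPM in large ones (scaled difference -2.79 ± 0.32, SE; adjusted p = 0.00566). rln1, a gene of the relaxin hormone family, had 19.1 and 31.5 TPM in small spheroids and 63.0 and 111 TPM in large ones (scaled difference -2.15 ± 0.26, SE; adjusted p = 0.00566). Both genes were ordered at every step of density. KCNE2, an accessory subunit of potassium channels, had 3.47 and 4.28 TPM in small spheroids and 11.5 and 25.1 TPM in large ones.

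The most abundant of the 12 lower genes was s100w, of the S100 family of calcium-binding proteins. It had 276 and 258 TPM in small spheroids and 519 and 738 TPM in large ones, with a scaled difference of -1.65 ± 0.12 (SE; adjusted p = 0.00411). crip1, a small LIM-domain protein, had 11.1 and 9.35 TPM in small spheroids and 21.1 and 35.5 TPM in large ones. casq2, a calcium store protein of heart muscle, and frrs1a, of the ferric reductase family, differed by -1.81 and -1.57 after scaling. The adjusted p as deposited was nearer the threshold for casq2 (0.0341) and spaca4l (0.0435) than for the other 10. SNORA73, U8 and 7SK are names of small noncoding RNAs, which a library of polyadenylated RNA with length-corrected shares measures poorly, so their values are given only as listed.

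Amino acid transporters had the highest median of any list. The list was written after values were seen, from the slc1, slc3, slc7, slc36, slc38 and slc43 families. Of 30 tested members (56 listed), 16 were higher (53.3%, against 17.7% of all genes tested) and 0 were lower, with a median difference of 0.92 as deposited and 0.52 after scaling, against 0.34 and -0.04 over all genes. Over all 199 tested solute carrier genes, a set that includes these families, 60 were higher (30.2%) and 1 was lower, so this share is not independent of the list's. slc7a11, the cystine and glutamate exchanger that feeds glutathione synthesis, had 298 and 278 TPM in small spheroids, against 35.8 and 68.5 TPM in large ones (scaled difference 2.08 ± 0.25, SE; adjusted p = 0.00566). slc7a10a, an exchanger of small neutral amino acids, had 37.5 and 28.7 TPM in small spheroids and 1.77 and 7.04 TPM in large ones.

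slc7a5, the large neutral amino acid exchanger, had 56.4 and 46.5 TPM in small spheroids and 8.05 and 11.9 TPM in large ones, a scaled difference of 1.86 ± 0.16 (SE; adjusted p = 0.00411). Another gene with the same name in capitals, SLC7A5, differed by 1.83, and how reads were shared between these copies is not known. Their heavy chain partners, the 2 copies of slc3a2, differed less: slc3a2b had 384 and 352 TPM in small spheroids and 180 and 183 TPM in large ones (scaled difference 0.58, adjusted p = 0.0143). slc38a2, a sodium-coupled neutral amino acid carrier, had 437 and 442 TPM in small spheroids and 154 and 254 TPM in large ones (0.71 after scaling, adjusted p = 0.0317). Other members called higher were slc1a5 (1.65), slc38a5a (1.62), slc7a3a (1.5), slc7a3b (1.48) and SLC7A1 (1.22), which carry glutamine, other neutral or cationic amino acids.

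The same transporters made up 7 of the 15 higher genes among 59 tested genes of the unfolded protein and integrated stress responses. The 15 were 25.4% of that list, against 17.7% of all genes, and 1 gene was lower (1.69%, against 2.71%). After scaling alone 15 were higher and 12 lower, where 18.1% of all genes were lower. Outside transport, the higher members included the endoplasmic reticulum stress sensors eif2ak3 (1.09 after scaling) and ern1 (0.85) and 2 of 3 genes named asns (asparagine synthetase). The most abundant asns copy had 751 and 725 TPM in small spheroids and 402 and 420 TPM in large ones (scaled difference 0.40 ± 0.10, SE; adjusted p = 0.0205). The list's median was 0.44 as deposited and 0.01 after scaling, close to that of all genes, and the chaperone pdia3 was lower after scaling (-0.64, adjusted p = 0.0105) but not as deposited (-0.20, adjusted p = 0.0756). The 20 cytosolic tRNA synthetases, which load amino acids onto tRNA, were called higher in 19 cases as deposited, against 36.5% of all genes. After scaling 6 were higher (30%, against 17.7% of all genes), with farsa largest at 0.93 and a list median of 0.16. This list is set against genes of like genomic span below.

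Ribosomal and respiratory chain genes that passed after scaling were nearly all lower in small spheroids. As deposited fewer passed, and some of those were higher. Of 91 tested names of the cytosolic ribosomal protein list, 20 were lower under both scalings (22%, against 2.71% of all genes) and 74 after scaling, with a median of -0.24 as deposited and -0.68 after scaling. As deposited 5 names were higher. The 1 name called higher under both scalings, rps6kal, is a kinase gene that the list caught by its symbol. It is also among the 5, and it was kept in the counts and medians of the list. Together the list held 21.9% and 21.2% of all TPM in small spheroids, against 28.0% and 23.7% in large ones. rpl39 and rps24, the 2 most abundant, did not pass as deposited (adjusted p = 0.077 and 0.156), and both passed after scaling, at -0.78 and -0.70. rps24 had 14258 and 14045 TPM in small spheroids, against 19491 and 14717 TPM in large ones, so most of that gap lay in the 50000-cell library. Of 2 genes named rpl37, the abundant one differed by -1.11 and the other by -0.97, and how reads were shared between them is not known.

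Among 100 tested nuclear genes of oxidative phosphorylation, 23 were lower under both scalings and 85 after scaling, against 2.71% and 18.1% of all genes. As deposited 4 were higher, and 0 were higher under both scalings. Their median was -0.19 as deposited and -0.62 after scaling. cox8b, a small subunit of cytochrome c oxidase, led the list with 22.2 and 25.6 TPM in small spheroids and 46.5 and 52.4 TPM in large ones (scaled difference -1.45 ± 0.14, SE; adjusted p = 0.00438). The abundant subunit genes cox6c and cox8a did not pass as deposited (-0.13 and -0.16) and passed after scaling (-0.57 and -0.60). No gene of the mitochondrial genome itself was listed by name. Mitochondrial ribosomal proteins had 6 of 75 tested genes lower under both scalings and 49 after scaling, while 4 were higher as deposited. Their median was -0.04 as deposited and -0.46 after scaling. Proteasome subunits had 1 lower and 2 higher of 56 under both scalings, with 36 lower after scaling, at medians of -0.01 and -0.44. Translation factors had 2 lower and 5 higher of 84, with 32 lower after scaling, at medians of 0.14 and -0.28, which differ in sign. The higher ones include eif2ak3, the endoplasmic reticulum stress sensor gene named above, which the list caught by its symbol. Splicing factors had 4 lower and 3 higher of 90, with 33 lower after scaling, at 0.14 and -0.29. The largest difference among translation factors was that of eif5b, which joins ribosomal subunits, at 68.9 and 59.2 TPM in small spheroids and 20.0 and 22.9 TPM in large ones.

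The share of genes called moved with gene size. Of the 11054 tested genes with a name, 9615 (87%) had a genomic span in RefSeq, the distance from gene start to gene end with introns. They were put in 5 bins of 1923 genes by span. In the bin of the shortest genes (median 4734 bases) the median difference was 0.04 as deposited and -0.37 after scaling, and in the bin of the longest (median 71569 bases) it was 0.70 and 0.34. The share called higher was 2.81%, 8.68%, 16.7%, 25.9% and 36.9% from the shortest to the longest bin, and the share called lower was 6.34% in the shortest and 1.04% in the longest. Spearman's rho between span and scaled difference was 0.46 across these genes, which share the same 4 libraries and are not independent. SFL had the same order of bins, with medians of -0.28 and 0.20 in the shortest and longest after scaling. By level, the median scaled difference was 0.12 in the least and -0.29 in the most abundant of 5 bins of genes.

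**Figure D3:**
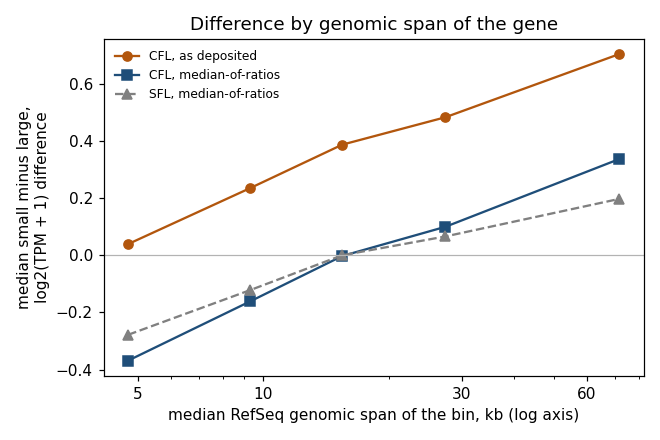
Median small minus large difference (y axis, log2(TPM + 1)) in 5 bins of genes by RefSeq genomic span (x axis, median span in kb, log axis), for CFL unscaled and scaled by median of ratios, with SFL scaled for comparison. In CFL the scaled median climbs from -0.37 in the shortest bin to 0.34 in the longest.

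Because of this, list medians were also set against the median of genes in the same span bin, by an addition made after seeing the data. Amino acid transporters, a list written after values were seen, lay 0.50 above their bins after scaling, so this is no check of that list. All solute carrier genes with a span, which include those transporters, lay 0.12 above theirs. Fibrillar collagens and their processing genes (-0.02), basement membrane genes (-0.10) and chromatin modifying enzymes (0.01) lay near the level of genes of like span. Cytosolic tRNA synthetases lay 0.07 above theirs, and their median span of 22680.5 bases fell in the bin where 25.9% of genes were higher. The hepatocyte list lay farthest below its bins, at -0.37, followed by cytosolic ribosomal proteins (median span 4287 bases) at -0.34. For oxidative phosphorylation, histone, smooth muscle and blood genes under 80% of members had a span, so the comparison is void there. Whether span or a property that goes with it, such as transcript length, had a part in any list was not tested.

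**Figure D4:**
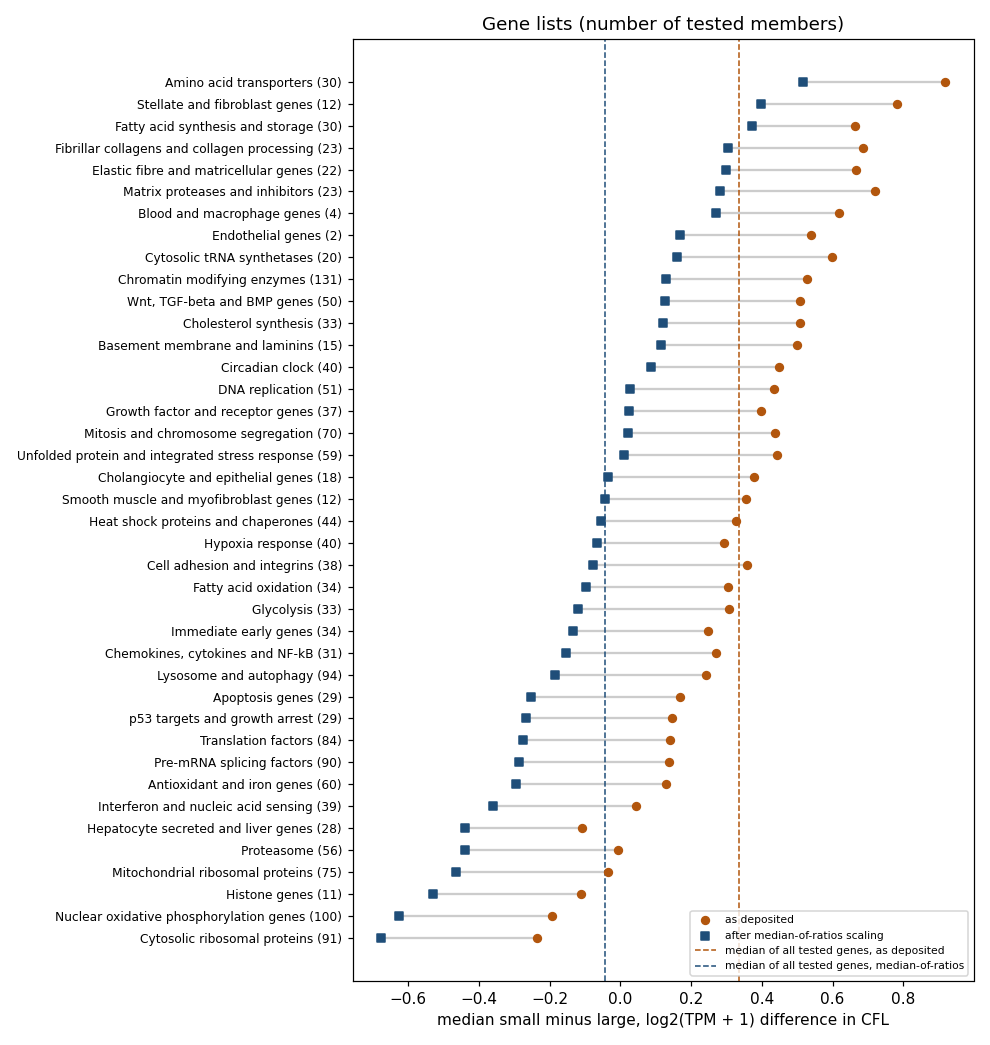
Median small minus large difference in CFL spheroids (x axis, log2(TPM + 1)) for each gene list, with the number of tested members in brackets, as deposited (circles) and scaled by median of ratios (squares); dashed lines mark the medians of all tested genes, 0.34 and -0.04. Amino acid transporters, a list written after values were seen, lie highest, at 0.92 and 0.52, and cytosolic ribosomal proteins lowest, at -0.24 and -0.68.

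In 23 fibrillar collagen and collagen processing genes 6 were higher (26.1%), in 15 basement membrane genes 5 (33.3%), in 22 elastic fibre and matricellular genes 4 (18.2%, near the share of all genes) and in 23 matrix proteases and inhibitors 7 (30.4%), against 17.7% of all genes. None was lower under both scalings in any of the 4 lists, where 2.71% of all genes were lower. After scaling alone 2 fibrillar collagen and 1 elastic fibre list genes were lower. The higher genes col4a1 and loxl2a, with means of 0.89 and 0.43 TPM in large spheroids, passed the filter of 1 TPM only through the small side. Both are counted in the shares of their lists. In the span bin that holds the basement membrane list's median span (69742 bases), 36.9% of genes were higher. The median spans of the fibrillar collagen (31000 bases), elastic fibre (30492.5) and protease (23109) lists fell in the bin where 25.9% were higher. After scaling the elastic fibre list lay 0.09 and the protease list 0.20 above genes of like span. col4a1 and col4a2, the paired chains of basement membrane collagen, moved alike: col4a1 had 9.16 and 7.77 TPM in small spheroids and 1.17 and 0.61 TPM in large ones, and col4a2 had 9.91 and 7.50 TPM in small and 1.90 and 0.68 TPM in large ones. col18a1a, the gene of the collagen that releases endostatin, was far more abundant, at 397 and 412 TPM in small spheroids and 156 and 177 TPM in large ones (scaled difference 0.84, adjusted p = 0.0292). All values in small spheroids lay above all values in large ones for these 3 genes, as they did for all 2349 genes called higher.

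col12a1a, a collagen on fibril surfaces, had 282 and 201 TPM in small spheroids and 68.6 and 121 TPM in large ones. emilin2a, an elastic fibre glycoprotein, had 295 and 273 TPM in small spheroids and 69.9 and 120 TPM in large ones (scaled difference 1.18 ± 0.20, SE; adjusted p = 0.00758). fn1a, fibronectin, was the most abundant gene of these lists at 3245 and 2550 TPM in small spheroids and 1010 and 1874 TPM in large ones, and it passed as deposited (1.06, adjusted p = 0.0239) but not after scaling (0.62, adjusted p = 0.0776). sparc did not pass under either scaling (0.03 and -0.41). TIMP3, an inhibitor of metalloproteases held in the matrix, had 348 and 286 TPM in small spheroids and 87.9 and 145 TPM in large ones, and the membrane protease gene mmp14a had 113 and 78.9 TPM in small and 31.8 and 40.4 TPM in large ones. The integrin gene itgav, whose product binds fibronectin and vitronectin, had 54.2 and 44.8 TPM in small spheroids and 7.27 and 14.3 TPM in large ones (scaled difference 1.74 ± 0.27, SE; adjusted p = 0.0069). It was the largest of 9 adhesion genes called higher among 38 (23.7%, against 17.7% of all genes). The median span of that list was 50282 bases, in the longest bin, where 36.9% of genes were higher. After scaling the list lay at -0.17 against genes of like span. Under both scalings 2 of the list were lower (5.26%, against 2.71%), among them the glypican gpc4 (-0.93), and after scaling alone 5 were lower.

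Markers of other cell types were examined beside these lists. Of 35 listed stellate cell and fibroblast genes 12 were tested. Of these 6 were higher (50%, against 17.7% of all genes) and 0 lower (against 2.71% of all genes). The median of the 12 was 0.78 as deposited and 0.40 after scaling. Their median span was 39387.5 bases, in the bin where 25.9% of genes were higher, and after scaling they lay 0.20 above genes of like span. ngfrb, a neurotrophin receptor found on stellate cells in mammals, had 4.44 and 4.33 TPM in small spheroids and 0.47 and 0.23 TPM in large ones. It passed the filter of 1 TPM only through the small side, and it is counted among the 6 of 12, so that share depends partly on the filter. pdgfrb, a receptor of mesenchymal cells, had 10.6 and 10.1 TPM in small spheroids and 2.62 and 2.69 TPM in large ones. The summed TPM of this list, held mostly by the growth factor gene mdka, was 2813 and 2471 in small spheroids and 1722 and 1406 in large ones. After scaling these sums were 2393 and 2094 in small spheroids and 2142 and 1501 in large ones, so the sides overlapped. mdka itself did not pass (0.75 as deposited, adjusted p = 0.103, and 0.31 after scaling, adjusted p = 0.542). Bile duct and epithelial genes summed to 1446 and 1978 TPM in small spheroids and 1844 and 1796 TPM in large ones. Of 18 tested genes 6 were higher (33.3%) and 1 lower (5.56%), against the same shares of all genes. After scaling alone 6 were higher and 4 lower, where 18.1% of all genes were lower. The higher gene jupb, with a mean of 0.355 TPM in large spheroids, passed the filter only through the small side. The median span of this list was 36501 bases, in the bin where 25.9% of genes were higher. After scaling the list lay at -0.0006 against genes of like span. The keratin genes krt8 and krt18b, which hold most of that sum, overlapped between the sides as deposited. After scaling both small values lay below both large ones in each, and neither gene passed (adjusted p = 0.115 and 0.0547).

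Of 36 listed endothelial genes 2 passed the filter, and their list summed to 34.0 and 36.2 TPM in small spheroids and 19.3 and 21.8 TPM in large ones. Of 38 blood and macrophage genes 4 passed, and the sums were 131 and 125 TPM in small spheroids and 83.8 and 111 TPM in large ones. After scaling, the endothelial sums were 28.9 and 30.7 in small spheroids and 24.02 and 23.29 in large ones, and the blood and macrophage sums were 111 and 106 in small spheroids and 104 and 118 in large ones. The endothelial markers pecam1 and cdh5 were listed at 0 in all 4 CFL libraries, while the endothelial receptor gene kdrl had 28.0 and 29.2 TPM in small spheroids and 14.6 and 16.6 TPM in large ones (scaled difference 0.42, adjusted p = 0.0184). The leukocyte marker PTPRC was at most 0.26 TPM, while the macrophage gene MPEG1 had 60.3 and 60.6 TPM in small spheroids and 34.9 and 53.4 TPM in large ones, and the leukocyte integrin gene itgb2 had 60.1 and 55.2 TPM in small spheroids and 41.9 and 51.5 TPM in large ones. Neither MPEG1 nor itgb2 passed under either scaling. The part of such cells in the other results was not tested. Smooth muscle and myofibroblast genes had 2 of 12 tested members higher (16.7%, against 17.7% of all genes) and 0 lower. The 2 were the receptor genes pdgfrb and pdgfra, while the contractile gene tpm4a, at 349 and 462 TPM in small spheroids and 394 and 389 TPM in large ones, did not pass.

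Hepatocyte genes had 4 higher (14.3%) and 1 lower (3.57%) of 28 tested, against 17.7% and 2.71% of all genes. After scaling alone 4 were higher and 6 lower, where 18.1% of all genes were lower. The list's median was -0.11 as deposited and -0.44 after scaling. apoeb had 1315 and 1653 TPM in small spheroids and 2349 and 2781 TPM in large ones (scaled difference -1.23 ± 0.15, SE; adjusted p = 0.00566), rising at every step of density. The urea cycle gene cps1 had 18.9 and 15.4 TPM in small spheroids and 3.65 and 4.14 TPM in large ones (1.5 ± 0.15, SE; adjusted p = 0.00428), and otc, the next enzyme of that cycle, was higher by 0.62. The list thus held genes that moved in opposite directions, and its most abundant member was lower in small spheroids.

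Metabolic lists were mixed. Glucose transporter and hexokinase genes were among those higher in small spheroids: slc2a1b, a glucose transporter gene, had 218 and 188 TPM in small spheroids and 37.6 and 55.3 TPM in large ones (scaled difference 1.69 ± 0.21, SE; adjusted p = 0.00566), and slc2a3a had 12.6 and 13.7 TPM in small and 2.56 and 3.17 TPM in large ones. The hexokinase genes hk2 and hk1 were higher by 1.1 and 0.68. Of 33 glycolysis genes 8 were higher (24.2%) and 1 lower, slc2a2 (-0.85), with 6 lower after scaling, and gapdhs, at 5144 and 5205 TPM in small spheroids and 4510 and 5010 TPM in large ones, did not pass. The median was 0.31 as deposited and -0.12 after scaling, a change of sign. The hypoxia list had 13 of 40 genes higher (32.5%, against 17.7% of all genes) and 0 lower under both scalings, at medians of 0.29 and -0.07. After scaling alone 13 were higher and 11 lower. slc2a1b, slc2a3a, hk1 and hk2 are in both lists. adma, the adrenomedullin gene that low oxygen induces in mammals, had 854 and 752 TPM in small spheroids and 892 and 1014 TPM in large ones, and was lower after scaling (-0.69, adjusted p = 0.0114) but not as deposited.

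Fatty acid synthesis and storage had 11 of 30 genes higher (36.7%) and 0 lower, against 17.7% and 2.71% of all genes. Its medians were 0.66 as deposited and 0.37 after scaling, and after scaling it lay 0.27 above genes of like span. Its higher members ran from the enzymes that make fatty acids (aclya 0.71, fasn 0.44, scdb 0.78) to those that activate them, led by acsl3b with 10.8 and 7.10 TPM in small spheroids and 1.94 and 2.93 TPM in large ones. acsl4a was the most abundant, at 528 and 556 TPM in small spheroids and 273 and 332 TPM in large ones (0.40, adjusted p = 0.0262). Cholesterol synthesis had 8 of 33 higher (24.2%) and 0 lower, at medians of 0.51 and 0.12, and msmo1, a sterol oxidase gene, had 50.6 and 45.0 TPM in small spheroids and 10.8 and 21.9 TPM in large ones. Fatty acid oxidation had 2 of 34 higher (5.88%) and 0 lower, at medians of 0.30 and -0.10, with 10 lower after scaling, against 18.1% of all genes. Of the 2, decr2 had a mean of 0.365 TPM in large spheroids and passed the filter of 1 TPM only through the small side.

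Genes of antioxidant defence and iron divided. Of 60 tested, 8 were higher (13.3%, against 17.7% of all genes) and 7 lower (11.7%, against 2.71% of all genes). After scaling alone 24 were lower, against 18.1% of all genes, and 8 higher. The higher ones included slc7a11, the glutathione synthesis genes gclm (1.16) and gss (0.27) and gsr (0.60), which recycles glutathione. The lower ones included mt2, a metal-binding metallothionein gene with 539 and 756 TPM in small spheroids and 1342 and 1196 TPM in large ones (-1.43 ± 0.29, SE; adjusted p = 0.0111), the glutathione peroxidase genes gpx1b (-1.27) and gpx4b (-0.81) and 3 genes named gstt1b. Another gene named mt2 did not pass under either scaling (adjusted p = 0.356 as deposited and 0.152 scaled). Metallothionein and gstt1b occur as near copies, so their separate values are uncertain. fth1b, the iron store ferritin and the most abundant gene in 3 of the 4 CFL libraries, had 28504 and 27175 TPM in small spheroids and 31677 and 35384 TPM in large ones, and passed after scaling (-0.71, adjusted p = 0.0276) but not as deposited (adjusted p = 0.0578). sqstm1, an autophagy receptor, did not pass under either scaling.

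In the Wnt, TGF-beta and BMP list 16 of 50 genes were higher (32%) and 0 lower, against 17.7% and 2.71% of all genes and 25.9% higher in the span bin with a median of 27395 bases, where the list's own median span was 25818 bases. Among them were the receptors bmpr2b (1.31) and tgfbr1b (1.28), the co-receptors lrp5 and lrp6 (1.16 and 0.79) and the signal carriers smad1, smad3b and smad4a (1.95, 1.08 and 0.62). In the clock list 13 of 40 were higher (32.5%) and 0 lower, at a median span of 18439 bases. npas2, a partner of Bmal proteins, had 13.2 and 13.5 TPM in small spheroids and 2.2 and 3.98 TPM in large ones. clocka, of the same role, had 7.80 and 6.39 TPM in small spheroids and 1.23 and 1.99 TPM in large ones. Of the repressors of that loop per3 was higher (1.1) and bhlhe41 was lower after scaling only (-0.61). bhlhe40, also a repressor, was higher, with 112 and 116 TPM in small spheroids and 44.7 and 73.0 TPM in large ones (scaled difference 0.55). The hour of harvest is not given in the labels.

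For cell division genes, the shares of all genes higher were 36.5% as deposited and 17.7% under both scalings. DNA replication had 21 of 51 tested genes higher as deposited and 4 under both scalings (7.84%), and mitosis and chromosome segregation 32 of 70 as deposited and 5 under both (7.14%), with 0 lower under both in each list. rrm1, a subunit of the enzyme that makes deoxyribonucleotides, had 85.8 and 91.0 TPM in small spheroids and 41.1 and 45.6 TPM in large ones (0.58, adjusted p = 0.0117), while the flap nuclease fen1 had 82.0 and 89.0 TPM in small spheroids and 88.0 and 80.9 TPM in large ones and did not pass. Of 29 tested p53 targets 3 were higher (10.3%) and 2 lower (6.9%), and of 29 apoptosis genes 3 (10.3%) and 1 (3.45%). Over all genes 17.7% were higher and 2.71% lower. After scaling alone 8 p53 targets and 6 apoptosis genes were lower, against 18.1% of all genes. Among p53 targets gadd45ga was lower, at 77.6 and 84.5 TPM in small spheroids and 129 and 119 TPM in large ones. Among apoptosis genes the survival genes bcl2l1 and mcl1b went in opposite directions (0.98 and -0.83). Immediate early genes had 4 of 34 higher (11.8%, against 17.7% of all genes) and 0 lower, led by dusp4 (0.99) and fosl1a (0.96).

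The remaining lists are set against the 17.7% of all genes higher and 2.71% lower. Chromatin modifying enzymes had 25 of 131 higher (19.1%) and 1 lower, growth factor and receptor genes 7 of 37 (18.9%) and 0 lower, heat shock proteins and chaperones 5 of 44 (11.4%) and 0 lower, lysosome and autophagy genes 14 of 94 (14.9%) and 3 lower, and chemokine, cytokine and NF-kB genes 4 of 31 (12.9%) and 1 lower. After scaling alone, 15 chromatin, 2 growth factor, 6 heat shock, 28 lysosome and 6 chemokine list genes were lower, against the same numbers higher as under both scalings, so the lysosome, heat shock and chemokine lists had more genes lower than higher there. The 1 lower chemokine was ccl20b, at 19.9 and 20.7 TPM in small spheroids and 35.2 and 34.5 TPM in large ones, and the NF-kB subunit rela was higher by 1.0. Of 11 histone genes H3-3B was lower and 0 were higher, with 8 lower after scaling. The interferon and nucleic acid sensing list had 3 higher and 3 lower of 39 under both scalings (7.69% each). After scaling alone 3 were higher and 11 lower, where 18.1% of all genes were lower. Its members lower under both were stat1b (-2.07), mxa (-1.33) and the RNA sensor tlr7 (-1.21). As many members were higher, which are not named here, so the list had no single direction under both scalings. Its most abundant members, psmb8a and psmb9a, did not pass under either scaling. stat1b, which carries interferon signals to the nucleus, had 0.24 and 0.76 TPM in small spheroids and 2.27 and 7.63 TPM in large ones, and mxa, an antiviral GTPase, had 0.93 and 1.63 TPM in small and 2.58 and 5.04 TPM in large ones. These are low values, and helz2 above had the same order over the densities.

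Whether these differences were particular to CFL was tested against the same comparison in SFL. The interaction called 0 of 13292 genes (0%) by limma under either scaling. On simulated data this test called 32% of genes given a log2 difference of 1 in CFL only, and 82% at a difference of 2. The simulation changed 200 genes at each size among 13292, on unscaled values with independent normal noise. Its percentages need not hold for these data or after scaling. With 2 libraries a side, 0 calls therefore do not show that the lines were alike. At an unadjusted p under 0.05 there were 1084 genes as deposited and 1180 after scaling, where a share of 0.05 of all genes would fall if none differed. The smallest adjusted p of the limma interaction was 0.0960 and 0.0813. In SFL 1191 genes were higher and 1252 lower in small spheroids after scaling (8.96% and 9.42%). Of the 2349 genes higher in small CFL spheroids, 2164 (92.1%) had a positive scaled difference in SFL, against 46.8% of all genes tested, with a median of 0.53 in SFL and 0.81 in CFL. Of the 360 lower genes 317 (88.1%) were negative in SFL, against 51.8% of all genes, with a median of -0.55 in SFL and -0.91 in CFL. The medians in CFL are of genes chosen for their size there, so they do not compare the lines.

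Of the 12 genes that led the higher side, mab21l1 was listed at 0 in all SFL libraries and kif1aa was at most 0.06 TPM there, so neither could show a difference in SFL, while the other 10 were positive in SFL, from 0.82 to 1.83. Of the 12 lower genes, 7 were negative in SFL, from -0.80 to -0.37, and helz2, SNORA73, KCNE2, pdzk1ip1 and U8 lay between 0.00 and 0.31. Of these, U8 was listed at 0 in all SFL libraries and SNORA73, KCNE2 and pdzk1ip1 were at most 0.38, 0.70 and 0.06 TPM there, while helz2 had 7.28 and 12.6 TPM in small and 7.43 and 5.73 TPM in large SFL spheroids. The interaction did not pass for any of the 24, with kif1aa, helz2 and SNORA73 at an adjusted p of 0.13.

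**Figure D5:**
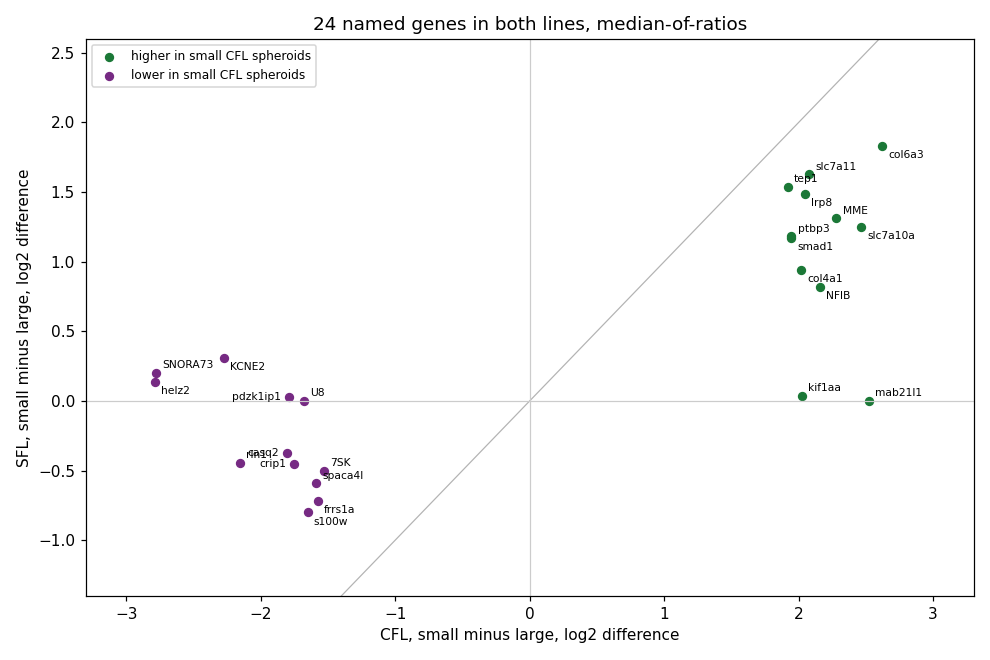
Scaled small minus large difference (log2(TPM + 1)) in CFL (x axis) and SFL (y axis) for the 24 named genes; the diagonal marks equal differences. The genes were chosen by their CFL values; 10 of the 12 higher genes lie between 0.82 and 1.83 in SFL, and mab21l1 and kif1aa, at or near 0 TPM in SFL, lie at 0.00 and 0.04.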

How the data were processed

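The deposited table holds 1 TPM value per gene and library. Per the submitters' processing notes, STAR 2.7.3a and RSEM 1.3.0 were used; per the labels' protocols, stranded polyadenylated RNA libraries were read as single reads of 75 bases. The genome build, annotation and strand setting are not given in the sources used here. All 8 value columns were mapped by title and 0 were left unmapped. Sequencing depth is unknown here, and every p-value measures only the spread between these libraries, which may be technical.

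Values were computed as log2(TPM + 1) from the deposited TPM. limma 3.58.1 in R 4.3.3 (lmFit, eBayes with a trend) was fitted to all 8 libraries in 4 groups of line by size, which share 1 estimate of the spread with 4 residual degrees of freedom, with Benjamini-Hochberg adjustment and a threshold of 0.05. Genes below a mean of 1 TPM over the 4 CFL libraries were left out. A gene could pass this filter through the side where it was high, so shares of tested list members depend partly on it. Called list members with means under 1 TPM in large spheroids included col4a1, loxl2a, ngfrb, jupb, decr2, mvk, smad1 and pole, and stat1b had such a mean in small ones. Median-of-ratios factors came from genes above 0 in all 8 libraries. Script steps were tested on simulated data.

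Named genes have a symbol, pass under both scalings with 1 sign, have sides that do not overlap and reach a mean of 5 TPM on the higher side. The 12 largest differences in each direction were taken, and per list the 2 largest called and the 2 most abundant members. Of these, 1 gene is not reported here. The members and lists were chosen with earlier results of these data known. Genomic spans came from RefSeq (AstMex3_surface), matched by symbol. No sequence was used.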

Additional observations from a re-analysis of the deposited data

Results flagged for a closer look

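The order of the sides was opposite in CFL and SFL for 2 interferon genes, at low values. stat1b had 0.24 and 0.76 TPM in small and 2.27 and 7.63 TPM in large CFL spheroids, and 1.3 and 1.27 TPM in small and 0.75 and 0.16 TPM in large SFL spheroids. The CFL minus SFL difference of the scaled small minus large differences was -2.57. mxa had 0.93 and 1.63 TPM in small and 2.58 and 5.04 TPM in large CFL spheroids, and 0.17 and 0.12 TPM in small and 0.03 and 0.04 TPM in large SFL spheroids, with a difference of -1.44. All SFL values of mxa were under 0.2 TPM. Neither gene passed in SFL after scaling (limma adjusted p = 0.409 for stat1b and 0.776 for mxa), and neither passed the interaction test of limma over all genes (adjusted p = 0.28 and 0.29).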

How the results depend on the processing

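As deposited, the count of genes higher in small spheroids (4857) became 2467 under quantile normalization, 0 for a slope on log2 density, 3179 without the 50000-cell libraries of both lines, and between 1179 and 5201 with 1 library left out. The count lower (360) became 215 with only the 4 CFL libraries, 2594 under quantile normalization, 0 for the slope, and between 42 and 315 with 1 library left out. After scaling, the count higher (2349) became 1334 without the 50000-cell libraries of both lines and between 8 and 2499 with 1 library left out, and the count lower (2406) became 1125 and between 11 and 2401. The interaction count (0) became 35 with a pseudocount of 5, 2 under quantile normalization, 4 without the 50000-cell libraries of both lines, and between 0 and 15 with 1 library left out. Where 1 library remained on a side, it was assumed to vary like the other groups. The causes were not tested. With density as a replicate block, the counts were 5521 higher and 454 lower as deposited and 2592 higher and 2770 lower after scaling, with 0 interaction calls. The libraries share only a density across lines.

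Genes lower after scaling that turned positive as deposited were p4hb (0.047), acat2 (0.066), hadhb (0.095), h2az2b (0.025) and hdac1 (0.092), and under quantile normalization rps24 (0.032), psma1 (0.066) and fth1b (0.18). The addition of the span comparison, the fits without the 50000-cell libraries and the interaction after scaling were chosen after seeing the data.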
